A study of Mus musculus with 6 samples.

Results

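Perineuronal net and glial matrix genes were followed in the spinal cord of mice that lack SOX2, a transcription factor of neural stem cells, in their astrocytes. The 10 genes were taken by symbol from a list drawn up with earlier results of these data known: the lecticans Acan, Bcan, Ncan and Vcan, the link proteins Hapln1, Hapln2 and Hapln4, the tenascins Tnr and Tnc, and the hyaluronan synthase Has2. They are 10 of the 35275 genes in the deposited tables, and all 10 passed the filter on low counts that left 16137 genes. Poly(A) RNA of whole spinal cord was sequenced from 3 Sox2 conditional knockout (Sox2 cKO) and 3 control (Ctrl) C57BL/6 mice. By the paper's methods each group held females and males, and no test here took sex into account. The Sox2 cKO mice are labelled mGfap-Cre:Sox2fl/fl, so that Cre recombinase driven by a mouse Gfap promoter removes the floxed gene in most astrocytes, and the Ctrl mice are labelled mGfap-Cre:Sox2+/+. The series' design text gives the controls as Cre carriers or floxed mice, and the methods give floxed littermates without naming Cre, so what Cre alone does to the matrix genes cannot be told apart from the deletion if the second account is right. The age is postnatal day 90 in the labels and day 80 in the protocol. Each column of the tables is 1 library, and libraries are called here by the last digit of their column: 2, 4 and 6 are Ctrl, and 1, 3 and 5 are Sox2 cKO. The column names match no sample label, so these groups rest on the mouse numbers that the study shows on a protein blot, not on GEO's labels.

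The matrix between cells of the spinal cord is built on hyaluronan, a long sugar chain that membrane enzymes spin out of the cell. Lecticans are chondroitin sulfate proteoglycans that bind hyaluronan at one end and tenascin-R at the other, and small link proteins clamp the lectican to the chain. Where this lattice condenses around the soma and dendrites of some neurons, motor neurons among them, it is called a perineuronal net, and a related lattice surrounds the node of Ranvier. Aggrecan (Acan) is the lectican most tied to nets, brevican (Bcan) and neurocan (Ncan) come from astrocytes and other glia, and versican (Vcan) is made largely by oligodendrocyte precursors. Hapln2 (Bral1) belongs to the node, Hapln1 and Hapln4 (Bral2) to nets, and tenascin-C (Tnc) to immature and injured glia.

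In SOX2 chromatin immunoprecipitation of adult mouse cerebral cortex, a different tissue from the one sequenced here, the study listed binding sites of high enrichment. Each is listed with a match to a motif that the paper describes as CAAAG and variants of it. Of these sites, 4 fell inside a member or had a member's start as the nearest protein-coding start in GENCODE M21. They are shown because Tnr and Tnc, to which 3 of them were assigned, were among the members that were lower in Sox2 cKO cord. The 11 capital letters in each are the listed site, in lower case are its listed flanks, and each reads 5′ to 3′ on the strand given. None of the 4 holds CAAAG itself, nor ACAAAG or ACAATG, on either strand.
Tnr, first site: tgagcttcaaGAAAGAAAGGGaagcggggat
Tnr, second site: ttgaggttGAAAGAGAGGCatatttgcct
Tnc: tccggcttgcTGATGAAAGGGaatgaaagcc
Hapln1: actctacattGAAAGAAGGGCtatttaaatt
The first Tnr site lies on the plus strand at chr1:159570454-159570464 (GRCm38, the build called mm10), in an intron 46.7 kb past the start of the gene. The second, also intronic and on the plus strand, lies at chr1:159661295-159661305, 137.5 kb past the start. The Tnc site, at chr4:64149133-64149143 on the plus strand, is not in the gene but 102.1 kb upstream of it, and the Hapln1 site, at chr13:89607529-89607539 on the minus strand, is in an intron 67.7 kb past the start. Hapln1 has a site and did not pass the test between groups, while Bcan, Ncan, Vcan and Hapln2 passed it and have no site in this list.

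Promoters are shown for Tnr, which changed most, and for Bcan and Hapln2, which are neighbours on chromosome 3 and changed in opposite directions. RefSeq promoters (GRCm38.p6) were found for 8 of the 10 members. In the 250 bases before each start, the SOX-type cores ACAAAG and ACAATG were searched on both strands, and a match is in capitals. Of all 32851 promoters, 16.5% held ACAAAG, 10.7% held ACAATG and 25.2% held at least 1 of the 2. Each sequence stops where an annotated exon begins, so 178 bases are given for Hapln2.
Tnr: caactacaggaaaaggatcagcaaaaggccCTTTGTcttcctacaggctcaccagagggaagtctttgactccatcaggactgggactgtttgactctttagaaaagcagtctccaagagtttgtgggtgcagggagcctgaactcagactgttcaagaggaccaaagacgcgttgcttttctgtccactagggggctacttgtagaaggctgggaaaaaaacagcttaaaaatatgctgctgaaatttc
Bcan: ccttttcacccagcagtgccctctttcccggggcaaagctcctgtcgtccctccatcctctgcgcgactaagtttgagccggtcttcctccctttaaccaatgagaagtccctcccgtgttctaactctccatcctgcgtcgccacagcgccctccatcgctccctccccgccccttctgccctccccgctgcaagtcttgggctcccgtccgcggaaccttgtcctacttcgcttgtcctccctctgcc
Hapln2: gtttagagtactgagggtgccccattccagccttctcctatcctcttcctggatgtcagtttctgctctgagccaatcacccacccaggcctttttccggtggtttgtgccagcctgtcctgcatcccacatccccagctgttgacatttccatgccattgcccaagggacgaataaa
The Tnr stretch (chr1:159523519-159523768, plus strand) held 1 match, 220 bases before the start. No match was in the Bcan stretch (chr3:88000357-88000606, minus strand) or in the Hapln2 stretch shown (chr3:88027584-88027761, minus strand). The shorter core CAAAG was not searched for in promoters, and the Bcan stretch holds it, as does the Tnr stretch outside its capitals. Hapln2 held ACAATG 35 bases before its RefSeq start, in bases that GENCODE counts as exon. The windows of Acan, Ncan, Vcan, Hapln1 and Tnc held neither ACAAAG nor ACAATG, but all 250 bases of the Hapln1 window are annotated as exon.

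Sox2 itself was at 19.9, 14.8 and 29.5 CPM (counts-per-million, scaled by the TMM method) in Ctrl libraries 2, 4 and 6 and at 3.16, 2.69 and 2.98 in Sox2 cKO libraries 1, 3 and 5, and the groups did not overlap. Libraries held between 21507911 and 28392184 counts. In the edgeR quasi-likelihood test over all genes, at a Benjamini-Hochberg adjusted p below 0.05, 2008 genes were lower (12.4% of those tested) and 1962 higher (12.2%). On log2(FPKM + 1) with limma the split was 915 lower and 2670 higher. Fold changes fell with exonic gene length (Spearman's rho = -0.481 across genes, which are not replicates), from a median log2 fold change of 0.30 in the shortest of 5 equal groups of genes by length to -0.25 in the longest. In the longest group 36.0% of genes were called lower, and the members are long, with a median of 4739.5 bases. Values corrected for this trend are therefore given beside the calls of members, and corrected values or counts beside the lists. Markers of astrocytes (Gfap, Aqp4), oligodendrocytes (Mbp, Mobp) and neurons (Snap25, Rbfox3) were present in every library. In whole tissue, fewer cells of a type and less RNA per cell cannot be told apart.

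Of the 10 members, 5 were lower in Sox2 cKO cord (Bcan, Ncan, Vcan, Tnr and Tnc), 1 was higher (Hapln2) and 4 did not pass the test (Acan, Hapln1, Hapln4 and Has2). The share lower, 5 of 10, stands beside 12.4% of all tested genes, and the share higher, 1 of 10, beside 12.2%. The median log2 fold change of the members was -0.45, against 0.02 for all tested genes. With DESeq2 the counts were also 5 and 1, beside backgrounds of 15.0% lower and 12.7% higher. After correction for gene length 4 members were lower and 1 higher, beside backgrounds of 6.99% and 6.08%, and the median of the members was -0.21 against 0.00. Of the members, 6 were lower in every Sox2 cKO library than in any Ctrl library by CPM, and 1 was higher in the same sense, whereas 22.1% and 22.6% of all tested genes were separated in these directions. With 3 libraries a group, an exact two-sided permutation test of 1 gene cannot go below p = 0.1, and it gave 0.1 for each of these 7 members.

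**Figure D1:**
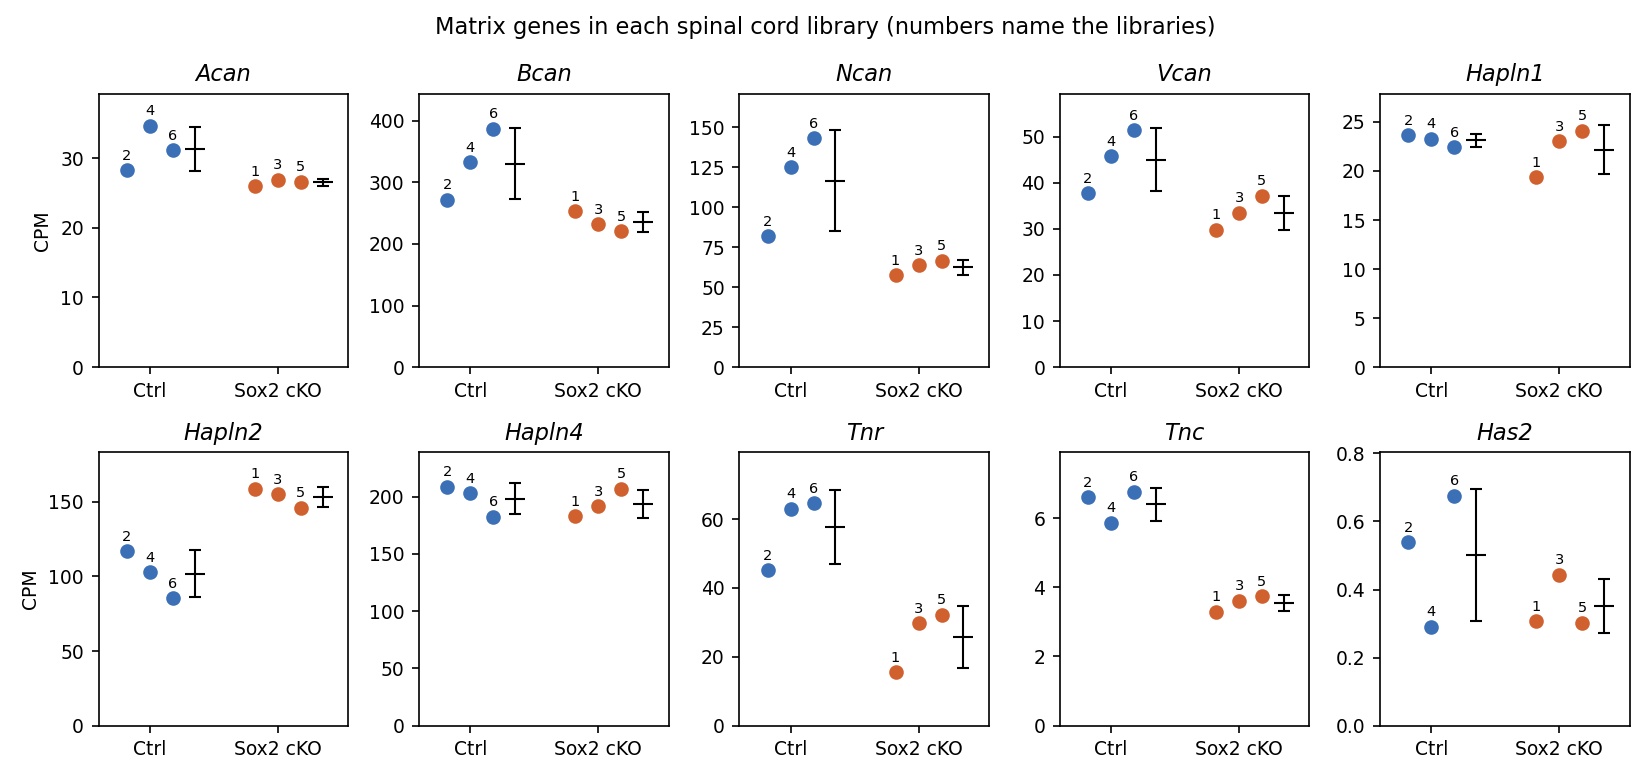
CPM of each member in Ctrl (blue) and Sox2 cKO (orange) libraries, with the library number over each point and the group mean ± SD (n = 3) as a black bar. Ncan, Tnr and Tnc are clearly apart between groups, Hapln2 is apart in the other direction, and Hapln1, Hapln4 and Has2 overlap.

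Among the lecticans, neurocan was the most reduced. Ncan (ENSMUSG00000002341, chr8:70093085-70120873, minus strand) was at 81.8, 125 and 143 CPM in Ctrl libraries 2, 4 and 6, and at 57.4, 63.9 and 66.4 CPM in Sox2 cKO libraries 1, 3 and 5. The Sox2 cKO values lay close together, and Ctrl library 2 was nearest to them. The Ctrl level was 1.86 times the Sox2 cKO level (log2 fold change -0.90 ± 0.17 SE, edgeR adjusted p = 0.013), and after length correction the log2 fold change was -0.61 (adjusted p = 0.022).

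Brevican is the most abundant lectican here. Bcan (ENSMUSG00000004892, chr3:87987531-88000230, minus strand) was at 272, 333 and 387 CPM in Ctrl and at 253, 232 and 221 CPM in Sox2 cKO libraries, in the same library order. The groups did not overlap, and Ctrl library 2 lay close to Sox2 cKO library 1. Bcan fell by 0.49 on the log2 scale (SE 0.12, adjusted p = 0.022). It is of middle length, 3267 bases, and the length-corrected value was nearly the same, -0.50 (adjusted p = 0.029).

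Versican gave a different picture once length was considered. Vcan (ENSMUSG00000021614, chr13:89655312-89742509, minus strand) was at 37.8, 45.8 and 51.5 CPM in Ctrl and at 29.8, 33.5 and 37.2 CPM in Sox2 cKO. The highest Sox2 cKO library, 5, was just under the lowest Ctrl library, 2. The log2 fold change was -0.43 ± 0.12 (adjusted p = 0.034), but Vcan is the longest member, 12427 bases, and its corrected value was 0.00 (adjusted p = 0.99). Its call was thus lost with the correction.

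Aggrecan did not pass the test. Acan (ENSMUSG00000030607, chr7:79053483-79115099, plus strand) was at 28.3, 34.6 and 31.1 CPM in Ctrl and at 26.0, 26.9 and 26.6 CPM in Sox2 cKO. All 3 Sox2 cKO libraries were below all 3 Ctrl libraries, by a small margin. The log2 fold change was -0.24 (95% confidence interval -0.45 to -0.03, adjusted p = 0.087), and after length correction it was 0.04 (adjusted p = 0.73).

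Among the link proteins only Hapln2 was called, and it was higher. Hapln2 (ENSMUSG00000004894, chr3:88021750-88027583, minus strand), the link protein of nodes of Ranvier, was at 117, 103 and 85.5 CPM in Ctrl libraries 2, 4 and 6 and at 159, 155 and 146 CPM in Sox2 cKO libraries 1, 3 and 5. Every Sox2 cKO library was above every Ctrl library. Hapln2 rose 1.51-fold (log2 fold change 0.59 ± 0.11, adjusted p = 0.013), and 0.47 on the log2 scale remained after length correction (adjusted p = 0.019). The gene is short, 2338 bases, and lies in length group 2 of 5, where 495 of 3227 genes were called higher.

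Hapln1 (ENSMUSG00000021613, chr13:89539796-89611652, plus strand) was at 23.6, 23.3 and 22.4 CPM in Ctrl and at 19.4, 23.0 and 24.1 CPM in Sox2 cKO. The groups overlapped, and Sox2 cKO library 1 alone was low. The log2 fold change was -0.06, with a 95% confidence interval from -0.29 to 0.17 (adjusted p = 0.70). Hapln4 (ENSMUSG00000007594, chr8:70083457-70090862, plus strand), the most abundant link protein of Ctrl cord, was at 209, 203 and 183 CPM in Ctrl and at 183, 191 and 207 CPM in Sox2 cKO. These ranges covered each other almost fully, and the interval of the log2 difference ran from -0.23 to 0.16 (adjusted p = 0.81). For both genes the direction was not settled, since it turned under other fits.

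Tenascin-R, which crosslinks lecticans, had the largest change of the 10. Tnr (ENSMUSG00000015829, chr1:159523769-159931729, plus strand) was at 45.2, 63.0 and 64.5 CPM in Ctrl libraries 2, 4 and 6 and at 15.5, 29.8 and 32.2 CPM in Sox2 cKO libraries 1, 3 and 5. Sox2 cKO library 1 was far below the other two. The Ctrl level was 2.22 times the Sox2 cKO level (log2 fold change -1.15 ± 0.23, adjusted p = 0.014), and the corrected value was close to it, -1.06 (adjusted p = 0.022). Without Sox2 cKO library 1 the log2 fold change was -0.89, with an adjusted p of 0.066 by edgeR and 1.8e-05 by DESeq2.

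In the same Sox2 cKO library 1, microglial C1qc was at 61.1 CPM against 36.9 and 31.9 in Sox2 cKO libraries 3 and 5. C1qc is 1 of 10 microglia markers, of which DESeq2 called 3 higher and 2 lower in Sox2 cKO cord. The part of C1qc or of microglia in the Tnr value was not tested.

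Tenascin-C was scarce. Tnc (ENSMUSG00000028364, chr4:63959785-64047015, minus strand) was at 6.59, 5.86 and 6.76 CPM in Ctrl and at 3.29, 3.62 and 3.74 CPM in Sox2 cKO, from between 75 and 147 counts a library. The groups were well separated relative to their spread. The Ctrl level was 1.80 times the Sox2 cKO level (log2 fold change -0.85 ± 0.15, adjusted p = 0.013), and the corrected log2 fold change was -0.58 (adjusted p = 0.039). The strand setting of the counting is not given in the sources used here, and genes on the opposite strand share 2.26% of the exonic bases of Tnc and 3.44% of those of Tnr.

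Has2 (ENSMUSG00000022367, chr15:56665627-56694539, minus strand), a hyaluronan synthase, was barely detected. It had 12, 7 and 14 counts in Ctrl libraries 2, 4 and 6 and 7, 13 and 8 counts in Sox2 cKO libraries 1, 3 and 5. The groups overlapped (log2 fold change -0.48, 95% confidence interval -1.45 to 0.50, adjusted p = 0.44), so that no difference was detectable at this depth. The antisense gene Has2os shares 4.3% of its exonic bases.

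The other hyaluronan synthases and the remaining relatives were read from the list of family members outside the 10. Has1 was at 3.68, 2.99 and 2.66 CPM in Ctrl and at 1.63, 1.64 and 1.74 CPM in Sox2 cKO, with no overlap. Has1 fell by 0.90 on the log2 scale (adjusted p = 0.018) and by 1.05 after length correction (adjusted p = 0.019). Has3, Hapln3, Tnxb and Tnn did not pass the test, so 1 of 5 relatives was lower, beside 12.4% of all tested genes.

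**Figure D2:**
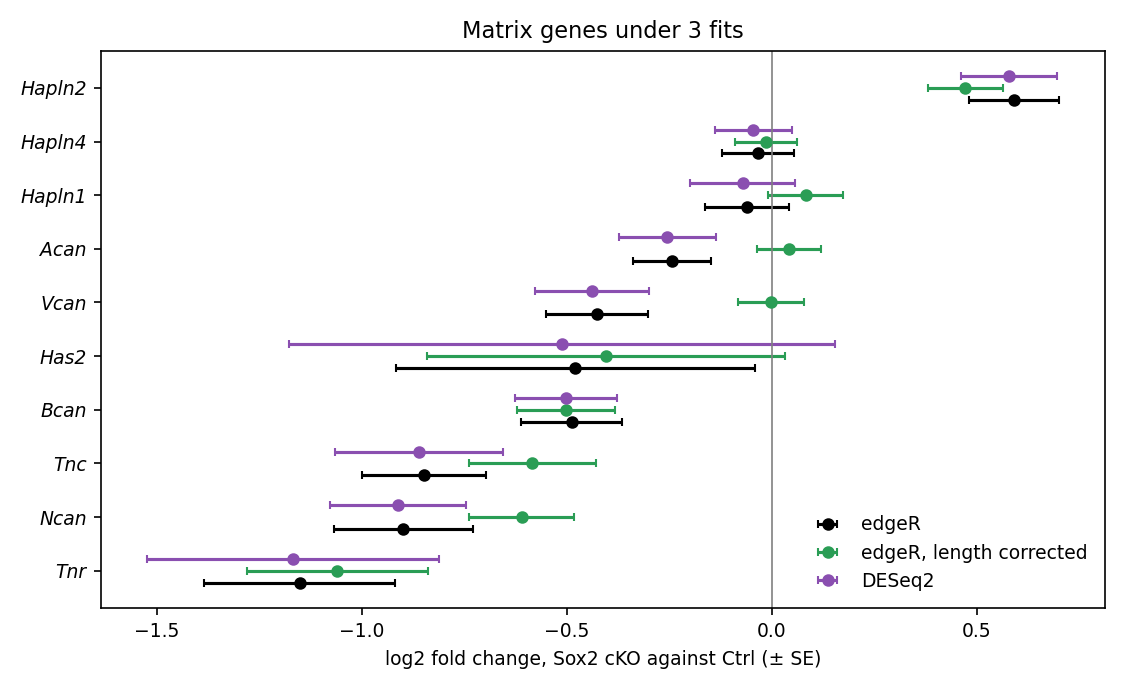
Log2 fold change of each member, Sox2 cKO against Ctrl, with its standard error, from edgeR (black), edgeR with length correction (green) and DESeq2 (purple). Acan and Vcan move to zero with the correction, while Tnr, Bcan and Hapln2 stay near their uncorrected values.

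**Figure D3:**
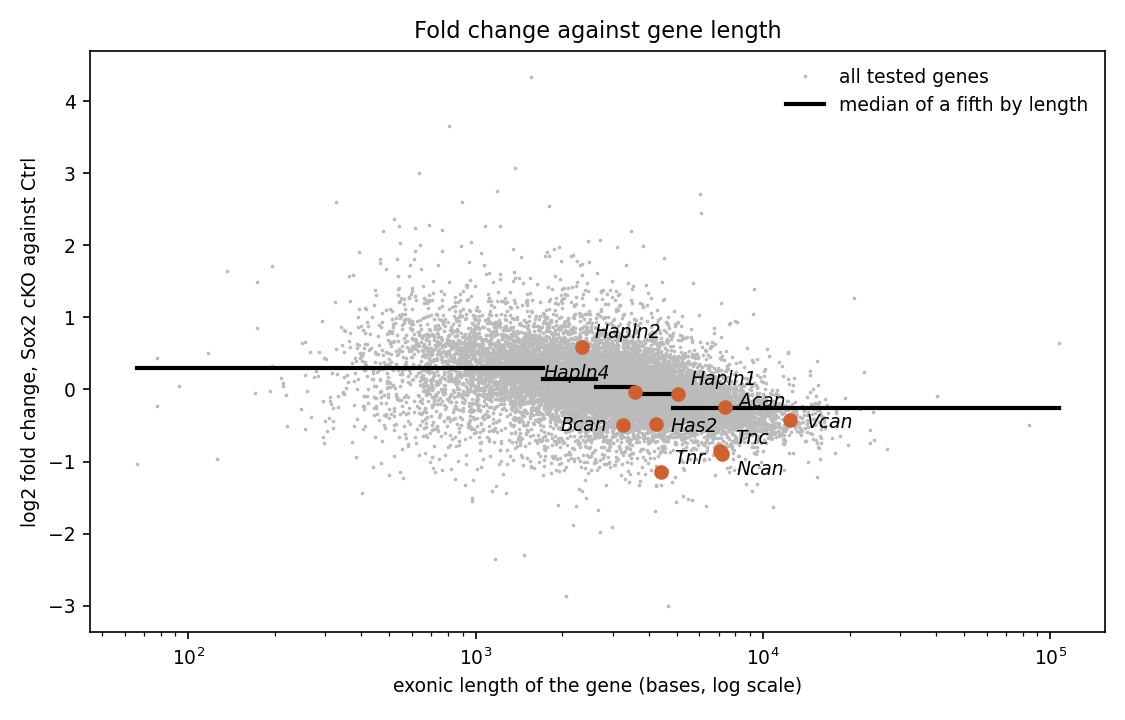
Log2 fold change of every tested gene (grey) against its exonic length on a log scale, with the members in orange and black lines for the median of each of the 5 length groups. Ncan and Tnc lie below the median of the longest group (-0.25), and Acan lies on it. Tnr and Bcan lie below the medians of their own length groups (-0.07 and 0.04).

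The plot of fold change against length shows where each member stands among genes of like size. Acan, Ncan, Vcan, Hapln1 and Tnc are in the longest group, at 4869 bases or more. Within that group 1161 of 3228 genes were called lower, so that 3 of 5 members called lower there (Ncan, Vcan and Tnc) stand beside 36.0%. Tnr, Hapln4 and Has2 are in length group 4, where the median log2 fold change was -0.07 and 457 of 3227 genes were called lower.

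Calls depended on single libraries. When each library was left out in turn, the 6 called members kept their direction in all 6 edgeR fits. Without Ctrl library 4, and without Sox2 cKO library 1, edgeR called none of the members, although 5 were lower and 1 higher at an unadjusted p below 0.05 in both fits. At that threshold 14.3% of all genes were lower and 14.8% higher without Ctrl library 4, and 15.0% and 15.0% without Sox2 cKO library 1. In those 2 fits edgeR called 26 and 8 genes in all (0.0794% of genes lower and 0.0794% higher in the former, 0.0303% and 0.0182% in the latter), and DESeq2 called 3 and 4 members lower and 1 higher. Leaving out Ctrl libraries 2 and 6 and Sox2 cKO libraries 3 and 5 gave 6, 3, 3 and 4 members lower and 1 higher each time, beside 18.6%, 2.90%, 4.04% and 8.18% of all genes lower and 18.3%, 3.64%, 4.27% and 8.13% higher. The adjusted p of Ncan was 0.065 without Ctrl library 4 and 0.0665 without Sox2 cKO library 1, and those of Tnr, Tnc and Hapln2 were between 0.065 and 0.0664 in these fits. Bcan kept its edgeR call only without Ctrl library 2 (adjusted p = 0.0013). It was between 0.062 and 0.084 without Ctrl library 4 or 6 or any 1 of the Sox2 cKO libraries. Vcan kept it without Ctrl library 2 (0.0039) or Sox2 cKO library 5 (0.041) and lost it in the other 4 fits, with adjusted p between 0.093 and 0.13. Acan passed in 1 fit, without Ctrl library 2 (0.018). By DESeq2, Bcan, Ncan, Tnc and Hapln2 kept their calls in all 6 fits, while Tnr lost its call without Ctrl library 4 (0.078) or 6 (0.074) and Vcan lost its call without Ctrl library 4 (0.061) or 6 (0.097) or Sox2 cKO library 1 (0.083).

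Levels of different genes were compared per length, as FPKM, in which counts are divided by gene length and library total. In Ctrl cord the order was Bcan (97.3 ± 14.5 FPKM, SD, n = 3), Hapln4 (53.5 ± 5.0), Hapln2 (42.1 ± 7.59), Ncan (15.6 ± 3.86), Tnr (12.5 ± 2.06), Hapln1 (4.42 ± 0.235), Acan (4.11 ± 0.371), Vcan (3.49 ± 0.444), Tnc (0.870 ± 0.0680) and Has2 (0.114 ± 0.0434). Among neighbours in this order, the Ctrl ranges overlapped for Hapln4 and Hapln2, for Ncan and Tnr, for Hapln1 and Acan, and for Acan and Vcan. In Sox2 cKO cord Hapln2 (67.9 ± 4.39 FPKM) was above Hapln4 (56.0 ± 2.31), and its range from 63.2 to 71.9 FPKM overlapped with that of Bcan, from 68.5 to 82.1 FPKM. The other ranks were as in Ctrl cord, with Ncan at 8.98 ± 0.477, Tnr at 6.01 ± 2.0, Tnc at 0.516 ± 0.0223 and Has2 at 0.0857 ± 0.0195 FPKM.

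**Figure D4:**
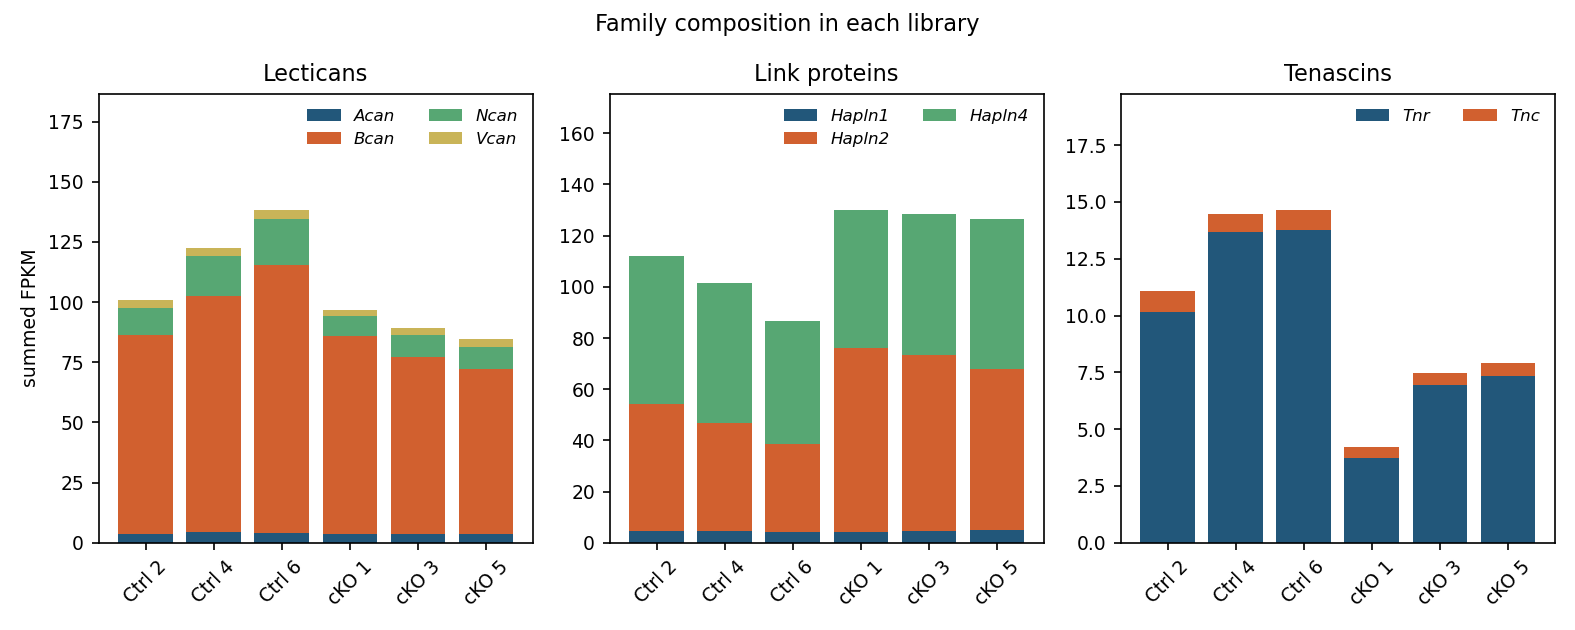
Summed FPKM of the lecticans, the link proteins and the tenascins in each library, stacked by gene (Ctrl libraries at left, Sox2 cKO libraries at right in each panel). The lectican sum spans 100.7 to 138.3 FPKM in Ctrl and 84.5 to 96.8 FPKM in Sox2 cKO, while the link-protein sum spans 86.7 to 112.2 and 126.6 to 130.0 FPKM.

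The summed levels of the lecticans and the tenascins were lower in Sox2 cKO libraries and that of the link proteins was higher, with no test between families. The 4 lecticans summed to 120.5 ± 18.9 FPKM in Ctrl and 90.1 ± 6.24 FPKM in Sox2 cKO libraries, and the 2 ranges did not overlap. Bcan made up 80.8 ± 1.09% of this sum in Ctrl and 82.7 ± 1.92% in Sox2 cKO, and Ncan 12.8 ± 1.37% and 10.02 ± 1.19%. For the 3 link proteins the sum was 100.1 ± 12.8 FPKM in Ctrl and 128.4 ± 1.75 FPKM in Sox2 cKO, also without overlap. Hapln2 was 41.9 ± 2.26% of it in Ctrl and 52.9 ± 2.71% in Sox2 cKO, with ranges apart, and Hapln4 was 53.7 ± 1.93% and 43.6 ± 2.39%. The tenascins summed to 13.4 ± 2.02 FPKM in Ctrl and 6.53 ± 2.02 FPKM in Sox2 cKO libraries. Tnr was 93.4 ± 1.49% and 91.5 ± 2.77% of that sum, with overlapping ranges.

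Each lectican gene has a link-protein gene beside it. The ratios of neighbours below are of FPKM, without the correction for the trend with gene length. After that correction the log2 fold changes were -0.50 for Bcan and 0.47 for Hapln2, and -0.61 for Ncan and -0.013 for Hapln4. For Vcan and Hapln1 they were -0.0022 and 0.083, with neither called. Bcan and Hapln2 lie on the same strand of chromosome 3, 21.5 kb apart with no protein-coding gene between, and 1 was lower while the other was higher. Within a library the ratio of Hapln2 to Bcan, in FPKM, was 0.60, 0.43 and 0.31 in Ctrl libraries 2, 4 and 6. It was 0.88, 0.93 and 0.92 in libraries 1, 3 and 5 of the Sox2 cKO mice, above every Ctrl library. Ncan and Hapln4 face each other 2.22 kb apart on chromosome 8, and the ratio of Hapln4 to Ncan was 5.13, 3.27 and 2.56 in Ctrl and 6.41, 6.03 and 6.27 in Sox2 cKO libraries. Vcan and Hapln1 lie 43.7 kb apart on chromosome 13, and the ratio of Hapln1 to Vcan was 1.54, 1.25 and 1.07 in Ctrl and 1.599, 1.69 and 1.59 in Sox2 cKO libraries, with Ctrl library 2 close under the Sox2 cKO libraries. Acan ends 2 bases from Hapln3 on chromosome 7, and Hapln3 was low, at 0.125 to 0.531 CPM in Ctrl and 0.416 to 0.659 CPM in Sox2 cKO libraries.

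**Figure D5:**
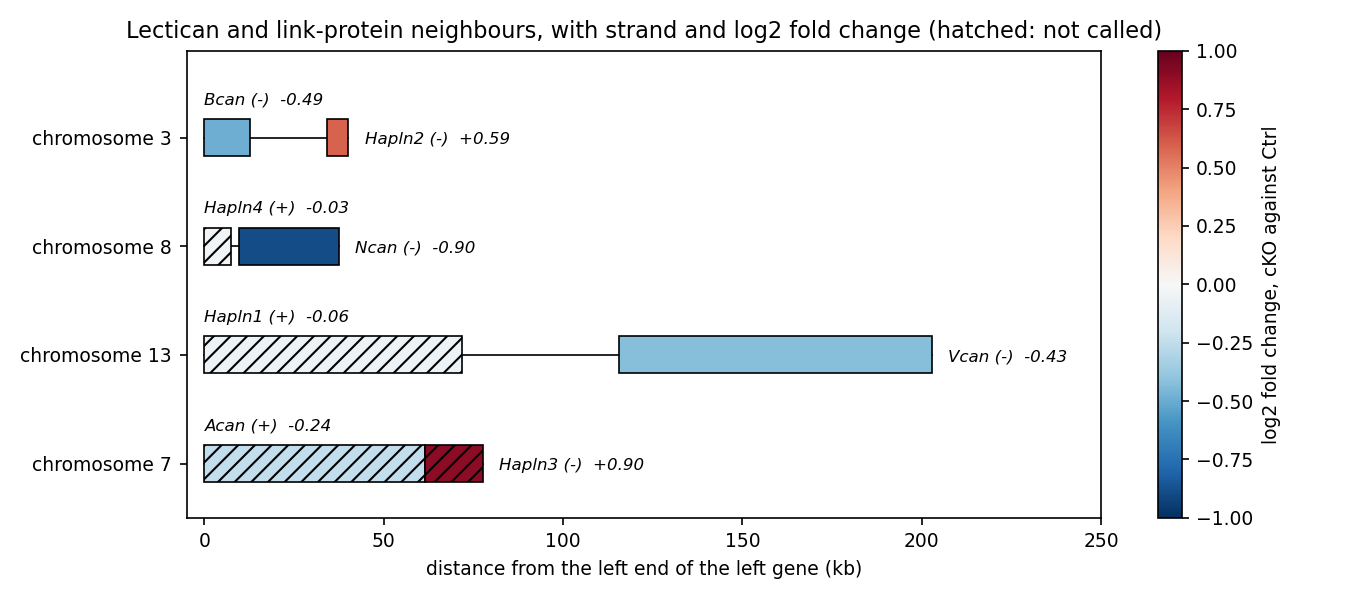
Lectican and link-protein genes drawn to scale from the left end of each pair, in kb, coloured and labelled by log2 fold change (Sox2 cKO against Ctrl) with the strand in parentheses. Hatched genes did not pass the test. The Bcan and Hapln2 pair is the only one of the 4 with both genes called, and in opposite directions.

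Genes that build, cut or bind the matrix were read from lists, and these counts are descriptions. The counts of each list below stand beside 12.4% of all tested genes lower and 12.2% higher. After length correction those shares were 6.99% and 6.08%. Of 21 tested genes for chondroitin sulfate synthesis and sulfation, 5 were lower and 1 higher, with a median log2 fold change of -0.18. Xylt1, a xylosyltransferase that starts the sugar chain, was at 12.3, 15.7 and 12.2 CPM in Ctrl and at 5.40, 10.6 and 5.82 CPM in Sox2 cKO libraries (log2 fold change -0.87, adjusted p = 0.027). Xylt2, the second such enzyme, fell by 0.45 on the log2 scale (adjusted p = 0.021). Both calls held after length correction (adjusted p = 0.038 and 0.031). B4galt7, which adds the next sugar of the linker, was higher by 0.43 (adjusted p = 0.026), and this call did not hold after the correction (adjusted p = 0.076). The correction left 2 genes lower and 0 higher of the 21.

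Of 14 genes for hyaluronan binding and turnover, 2 were lower and 1 higher, beside 12.4% and 12.2% of all tested genes. Cd44, the main hyaluronan receptor of astrocytes, was at 20.6, 25.4 and 28.4 CPM in Ctrl and at 15.9, 16.4 and 15.9 CPM in Sox2 cKO libraries. Cd44 fell by 0.62 (adjusted p = 0.013), and by 0.43 after length correction (adjusted p = 0.030). Hyal1, a hyaluronidase, fell by 0.48 (adjusted p = 0.047), and Itih3, a chain of an inhibitor that binds hyaluronan, rose by 0.35 on the log2 scale (adjusted p = 0.045). The last 2 calls did not hold after correction (adjusted p = 0.052 and 0.055). After it 2 of the 14 genes were lower, Cd44 and a gene without a call by the main test, and 0 were higher.

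Of 17 lectican-cleaving proteases and inhibitors, 3 were lower and 0 higher, beside 12.4% and 12.2% of all tested genes. Adamts4, which cuts aggrecan and brevican, was at 175, 212 and 184 CPM in Ctrl and at 118, 136 and 137 CPM in Sox2 cKO libraries (log2 fold change -0.54, adjusted p = 0.013), and its corrected value was -0.45 (adjusted p = 0.019). Adamts5, a related enzyme, was lower by the main test (log2 fold change -0.46, adjusted p = 0.040) and not after correction (adjusted p = 0.34). At an unadjusted p below 0.05, 3 of the 17 were higher, and DESeq2 called 5 lower and 1 higher. The correction left 2 lower and 1 higher.

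Among 22 other brain proteoglycans 3 were lower and 2 higher, beside 12.4% and 12.2% of all tested genes. Ptprz1, a receptor phosphatase whose secreted form, phosphacan, binds tenascins, was at 130, 150 and 153 CPM in Ctrl and at 73.0, 98.6 and 90.4 CPM in Sox2 cKO libraries. Its log2 fold change was -0.72 (adjusted p = 0.012), and -0.42 after correction (adjusted p = 0.019). Cspg4 (NG2), the proteoglycan of oligodendrocyte precursors and pericytes, had a log2 fold change of -0.67 (adjusted p = 0.013) and lost its call with the correction (adjusted p = 0.061). Omd, a small leucine-rich proteoglycan, rose by 1.08 (adjusted p = 0.041) at 0.772 to 2.20 CPM in Ctrl and 2.94 to 4.53 CPM in Sox2 cKO libraries, and this call was also lost (adjusted p = 0.11). The correction left 1 lower and 1 higher of the 22.

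Of 17 receptors and partners of the matrix, 8 were lower and 1 higher, and 4 and 0 after length correction, from a list whose median length is 5930 bases. Itga9, an integrin subunit that binds tenascin-C, had a log2 fold change of -0.74 (adjusted p = 0.013) and -0.47 after correction (adjusted p = 0.030). Nfasc, a protein of the node and the axon initial segment, was at 617, 843 and 846 CPM in Ctrl and at 453, 488 and 527 CPM in Sox2 cKO libraries, with a corrected log2 fold change of -0.28 (adjusted p = 0.037). Egfr, a growth factor receptor, fell by 0.74 (adjusted p = 0.013), a call lost with the correction (adjusted p = 0.059).

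Neurons that carry nets were read through 7 genes. None was lower by edgeR, where 1 was lower at an unadjusted p below 0.05 and DESeq2 called 1 lower. Pvalb, the calcium buffer of fast-spiking neurons, was higher by 0.33 (adjusted p = 0.032), and its length-corrected value was -0.01 (adjusted p = 0.93). The 1 lower gene was Kcna1, a potassium channel subunit named after its values were seen, with a log2 fold change of -0.26 (adjusted p = 0.094) and 0.08 after correction (adjusted p = 0.42). The correction left 0 of the 7 genes lower and 1 higher, Kcnc1, another such subunit (log2 fold change 0.03 before and 0.32 after correction, adjusted p = 0.033 after it).

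These 7 lists of relatives, enzymes, proteoglycans, receptors and net-bearing neurons hold 106 genes. A few of the 106 were removed by the filter on low counts and so were not tested, and edgeR called 28. Of the 28, 22 were lower and 6 higher, and of all tested genes edgeR called 3970 of 16137. Leaving out Ctrl libraries 2, 4 and 6 in turn, it called 44, 0 and 10 of the 106, and leaving out Sox2 cKO libraries 1, 3 and 5 it called 0, 10 and 17. Of all tested genes, the fits without a Ctrl library called 6119 of 16590, 26 of 16373 and 1082 of 16552. Those without a Sox2 cKO library called 8 of 16482, 1359 of 16345 and 2665 of 16339. In the 2 fits without a call in these lists, 36 (without Ctrl library 4) and 35 (without Sox2 cKO library 1) had an unadjusted p below 0.05, and DESeq2 called 17 and 18. Of all tested genes, 4758 of 16373 and 4945 of 16482 had such a p, and DESeq2 called 1981 of 13623 and 2342 of 13632.

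Cell type markers were read in the same way, beside 12.4% of all tested genes lower and 12.2% higher, and 6.99% and 6.08% after length correction. Of 12 astrocyte markers, 7 were lower and 1 (S100b) higher, and their summed CPM was 9209 to 11140 in Ctrl and 7142 to 7397 in Sox2 cKO libraries. After length correction 4 were lower and 0 higher, and the S100b call was lost (adjusted p = 0.062). Gfap, the astrocyte intermediate filament, had a log2 fold change of -1.11 (adjusted p = 0.010), Slc1a2, the glutamate transporter, -0.62 (adjusted p = 0.014), Aqp4, the water channel, -0.44 (adjusted p = 0.015) and Aldh1l1, a folate enzyme, -0.37 (adjusted p = 0.027). Corrected for length, Gfap was at -1.20 (adjusted p = 0.010) and Aqp4 at -0.29 (adjusted p = 0.033), while Slc1a2 at -0.21 (adjusted p = 0.093) and Aldh1l1 at -0.30 (adjusted p = 0.051) lost their calls. Of the 12 markers edgeR called 1 without Ctrl library 4 and 0 without Sox2 cKO library 1. Of 10 oligodendrocyte precursor markers, 3 were lower and 0 higher, with sums of 646.7 to 673.6 CPM in Ctrl and 545.5 to 585.4 CPM in Sox2 cKO libraries. Pdgfra, the receptor that defines these cells, had a log2 fold change of -0.37 (adjusted p = 0.024), and -0.13 after length correction (adjusted p = 0.24), and Cacng4 and Matn4 did not pass. Gpr17, a receptor of committed oligodendrocyte precursors, fell by 0.87 (adjusted p = 0.018), and by 0.72 after correction (adjusted p = 0.037). The corrected counts were again 3 lower and 0 higher. None of 11 oligodendrocyte markers was called by edgeR, 3 were lower at an unadjusted p below 0.05, and DESeq2 called 3 lower. With the length correction edgeR called 3 lower and 0 higher, with a median log2 fold change of -0.19. The sums of these markers were 22270 to 24700 CPM in Ctrl and 23050 to 25390 CPM in Sox2 cKO libraries. Of 12 neuron markers, 2 were lower and 1 higher, and Rbfox3, Snap25 and Syt1 were not called. Nefh, a neurofilament, was at -0.45 (adjusted p = 0.018), Map2, a dendritic microtubule protein, at -0.35 (adjusted p = 0.032) and Stmn2, a tubulin-binding protein of growing axons, at 0.30 (adjusted p = 0.038). After length correction 1 was lower (Nefh, -0.40, adjusted p = 0.028) and 1 higher (Snap25, 0.48, adjusted p = 0.040). At an unadjusted p below 0.05, and by DESeq2, 3 neuron markers were lower and 3 higher.

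Other cell types differed between single libraries. Ctrl library 6, in which Bcan, Ncan and Vcan were highest and Hapln2 lowest, had a summed CPM of meningeal fibroblast markers of 584.3, against 1849 and 1641 in Ctrl libraries 2 and 4 and 2131 to 2809 in Sox2 cKO libraries. Without Ctrl library 6 the log2 fold changes were -0.36 for Bcan, -0.72 for Ncan, -0.32 for Vcan and 0.48 for Hapln2. In Sox2 cKO library 1, where Tnr was lowest, the summed microglia markers were at 460.9 CPM, against 336.3 and 296.7 in the other Sox2 cKO libraries and 317.2 to 361.6 in Ctrl libraries. The same library was also highest for endothelial markers, at 276.6 CPM against 189.7 and 192.9 in the other Sox2 cKO libraries and 176.4 to 202.9 in Ctrl, and for pericyte and smooth muscle markers, at 327.6 CPM against 248.9 and 259.1, and 233.1 to 261.2 in Ctrl. Of the lists for microglia, endothelium, pericytes and smooth muscle, meningeal fibroblasts, Schwann cells, ependyma and blood, 3, 1, 1, 2, 0, 0 and 2 genes were higher and 0, 0, 1, 0, 0, 1 and 0 lower. These lists held 10, 8, 8, 10, 6, 6 and 7 tested genes, and 12.2% of all tested genes were higher and 12.4% lower. After length correction 1, 1, 1, 0, 0, 0 and 2 were higher and 1, 0, 0, 0, 0, 1 and 0 lower, beside 6.08% and 6.99%. DESeq2 called 3, 2, 1, 1, 0, 0 and 2 higher and 2, 0, 1, 0, 0, 1 and 0 lower, beside 12.7% and 15.0%. For Schwann cells, 0 of 6 genes were at an unadjusted p below 0.05 and DESeq2 called 0. The part of these cell types in the values of the matrix genes was not tested.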

How the data were processed

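Poly(A)-selected RNA from the spinal cord of 6 mice, 3 in each group, was sequenced in bulk with single-end reads. According to the submitters' processing notes, the authors used STAR 2.5 for alignment to mm10 and HTSeq 0.6.1 for counting. The deposited count table holds these raw counts. The deposited FPKM table was made by the authors from the same counts, with gene length and the library total, and for all 24442 genes with a count the recovered length was whole within 0.01 bases. Columns were assigned to groups by the mouse numbers on the study's blot, and group means of normalized counts matched the study's list of tested genes for 1999 of 1999 genes (0 with the groups exchanged, relative tolerance 1e-04). The tables held 0 other per-sample columns. Nothing says whether the mice were processed in batches, so p-values measure the spread between these libraries. No library was a copy of another. Likeness of 2 libraries was read as a chi-square per degree of freedom, where a lower value means more alike. Ctrl library 2 was at 11.6 and 15.7 from Sox2 cKO libraries 5 and 3. It was at 26.9 and 31.6 from Ctrl libraries 4 and 6, and at 30.1 from Sox2 cKO library 1. Ctrl libraries 4 and 6 were at 10.7 from each other and at 52.8 to 90.1 from the Sox2 cKO libraries.

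The main test was edgeR 4.0.16 in R 4.3.3 (filterByExpr, TMM, quasi-likelihood test, Benjamini-Hochberg adjustment at 0.05, no covariates), and the biological coefficient of variation was 0.119. All tests ran on the whole table. Standard errors were the log2 fold change over the root of its F statistic. Alternatives were DESeq2 1.42.0, upper quartile normalization, no filter, at least 10 counts in every library, limma 3.58.1 on log2(FPKM + 1) and log2(FPKM + 0.1) where mean FPKM was 0.5 or more, a correction for gene length (lowess of each library, span 0.3, prior count 2), and fits that left out 1 library. Names and positions came from GENCODE M21, with 34490 of 35275 identifiers matched. SOX2 sites were placed by the window and offset in the study's table, checked against RefSeq promoters. Figures were drawn with matplotlib 3.10.9 in Python 3.11.15. The members and the lists were chosen with earlier results of these data known. Named genes are all members, Sox2, up to 3 called genes a list with the largest change among those without overlap and with a mean count of 50 or more, and up to 4 markers of each of 4 cell types. One oligodendrocyte marker and 1 net-bearing neuron gene are not reported here and were left out of the counts and sums of their lists.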

Additional observations from a re-analysis of the deposited data

How the results depend on the processing

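No paired analysis was possible because the columns carry no replicate numbers. The number of genes called was 3970 in all. It was 2109 with the length correction. Leaving out 1 library gave 8 to 6119 genes with edgeR, 1981 to 5624 with DESeq2 and 10 to 4465 with the length correction. Of the members, 3 were lower with limma on log2(FPKM + 1) and 2 on log2(FPKM + 0.1), and Has2 and its low values were not tested there. Leaving out 1 library gave 0 to 6 members lower with edgeR, 3 to 6 with DESeq2 and 0 to 3 with the length correction, and 0 to 1 higher with edgeR or the correction. DESeq2, upper quartile normalization, no filter and at least 10 counts in every library gave 5 lower and 1 higher.

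The log2 fold changes of Bcan, Ncan, Tnr, Tnc, Hapln2 and Has2 kept their sign in every fit in which they were tested. Acan turned to 0.0435 with the length correction and ranged from -0.33 to 0.0803 over all fits with 1 library left out, Vcan from -0.55 to 0.0537 and Hapln4 from -0.10 to 0.0262. Hapln1 turned to 0.0275 and 0.0325 in the limma fits with pseudocounts of 1 and 0.1 and to 0.0831 with the length correction, and ranged from -0.14 to 0.15 with 1 library left out. Hapln4 turned to 0.0118 with upper quartile normalization and to 0.066 and 0.0672 in the same limma fits. The cause was not tested, except that the correction removes the trend with length by construction (rho = 0.0114 after it). Of the 247 values of members under alternatives, 162 kept their direction and side of the threshold, 54 lost the call, 2 gained it and 29 turned. The depth limits Has2, with 7 to 14 counts a library.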
